A study of Mus musculus with 6 samples.

Results

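The genes described here encode the barrier-forming machinery of the tight junction: the claudins Cldn2, Cldn3, Cldn4, Cldn7, Cldn15 and Cldn23, the membrane proteins Ocln, Marveld2 and F11r, and the scaffold protein gene Tjp1. They were taken by gene symbol from a table of raw read counts and number 10 of the 46078 genes in it. RNA had been sequenced from small intestinal epithelial cells of untreated C57BL/6JRj mice, freed from the tissue with EDTA and trypsin and sorted for EpCam and against CD45; the design text places the cells in the proximal part of the organ. The comparison was by age, between young mice of 2 to 3 months and aged mice of 20 to 22 months, with 3 libraries each. The labels give no replicate numbers, and those used here follow the order of the samples. The design text counts 3 mice per age, so a library was read as a mouse, although the sample labels do not say so. If that reading were wrong, the p-values would measure technical spread only. Cells of the whole epithelium were pooled in each library, so fewer cells of a type and less RNA per cell cannot be told apart.

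Tight junctions ring each epithelial cell near its apical edge and set how easily ions, water and larger solutes pass between neighbouring cells. Claudins are tetraspan proteins whose extracellular loops meet across that gap. Some of them, Cldn2 and Cldn15 among them, form channels for small cations, while others, such as Cldn3 and Cldn4, tighten the seal. Their tails bind the PDZ domains of zonula occludens scaffolds, of which Tjp1 (ZO-1) is the best known, and these tie the strands to actin.

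None of the 10 genes passed the test for a difference with age. Cldn7, Cldn3, Tjp1, Marveld2 and F11r differed least, with log2 fold changes between -0.013 and 0.024. The widest difference was that of Cldn4, whose level was 1.29-fold higher in young than in aged mice and missed the threshold (edgeR quasi-likelihood test with Benjamini-Hochberg adjustment, adjusted p = 0.311). Cldn2 and Cldn15 followed with log2 fold changes of -0.21 and -0.16, also short of the threshold. The edgeR test, DESeq2 and limma-voom each called 0 of 10. Over all 14923 genes tested, edgeR called 1.41%, with 0.623% higher and 0.784% lower in aged mice. Without young replicate 2 and aged replicate 3, both described further on, the count for the 10 genes was again 0, while 594 genes were called higher and 587 lower over all genes. At an unadjusted p below 0.05 the edgeR test counted 1 of the 10 genes, Cldn4, which was lower in aged mice. Of all genes, 9.23% passed that mark, and 5.33% of all genes did so with a lower aged level. All 10 passed the filter on low counts, 4 had a log2 fold change above 0 and 6 below, and their median was -0.012, beside 0.0065 over all tested genes.

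**Figure D1:**
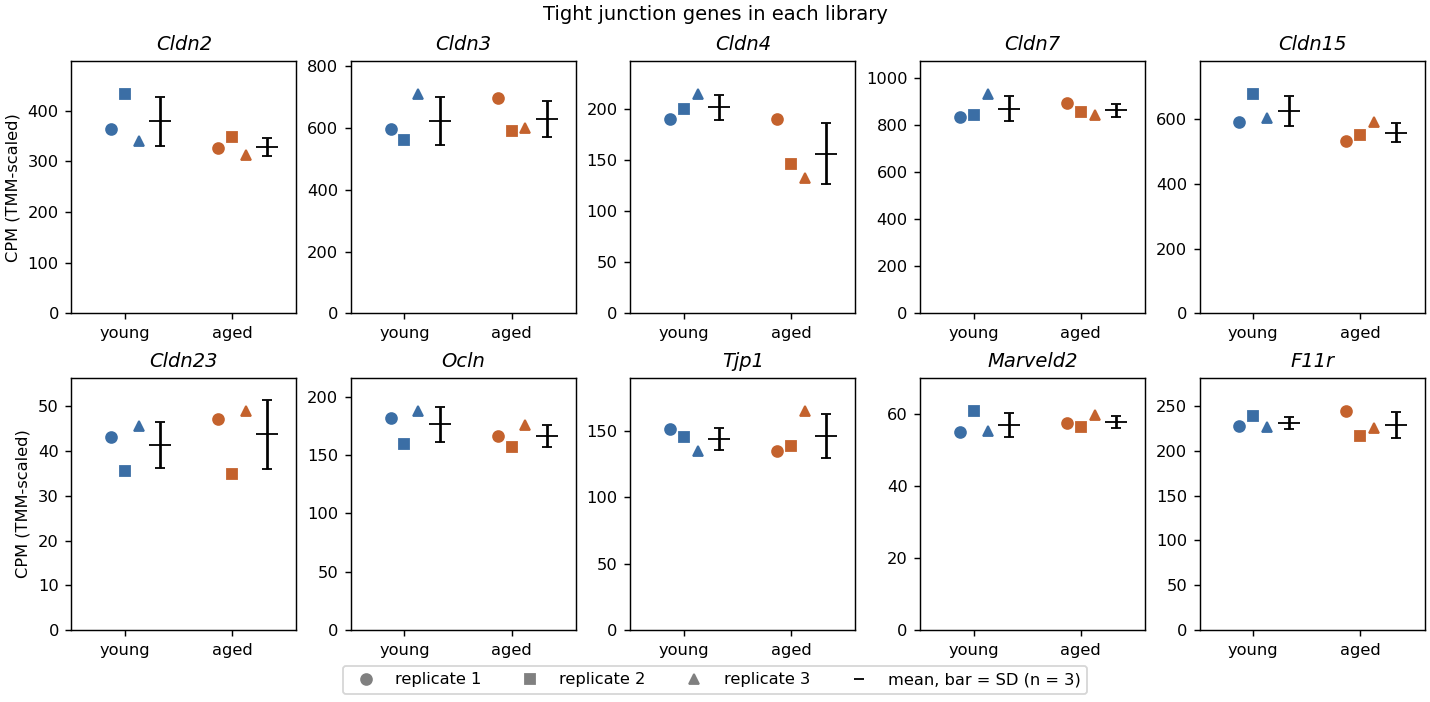
Level of each gene in every library, in CPM (read counts relative to the library total) scaled with TMM factors (vertical axis from 0), for young (blue) and aged (orange) mice; symbols mark replicates, and the bar is the mean with its SD (n = 3). With this scaling, only Cldn4 and Cldn15 of the 10 genes have every young library above every aged one, Cldn15 by 593 against 591 CPM at the closest.

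**Figure D2:**
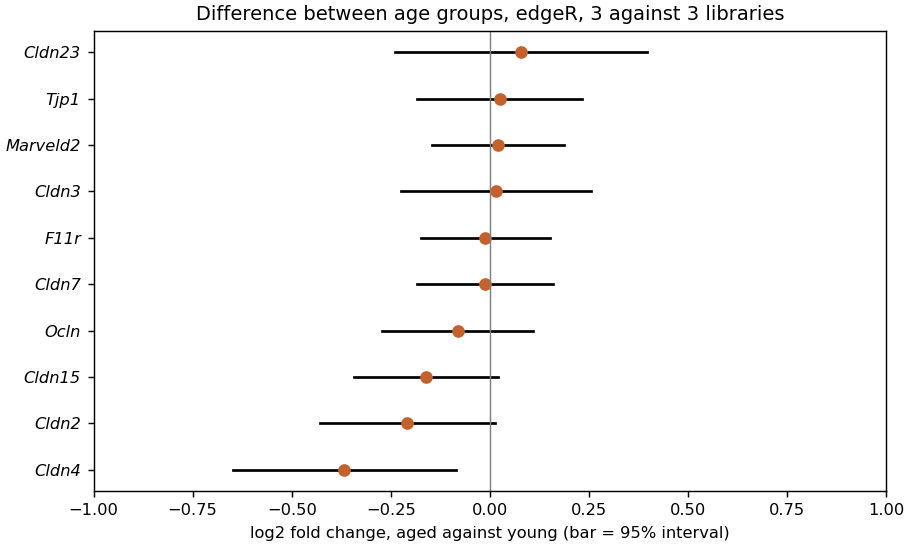
Fitted log2 fold change of aged against young mice (horizontal axis) with its 95% interval for each gene, from edgeR on 3 against 3 libraries. The interval of Cldn4 lies below 0 before adjustment for multiple testing, and the other 9 intervals span 0.

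Levels are given as CPM, a gene's read count relative to its library's total, scaled between libraries with TMM factors, which correct for differences in RNA composition. The libraries held 41479573 to 58989166 counts, and each of the 10 genes had at least 1594 counts in every one, so counting error was smaller than the spread between mice. In principal components, young replicate 2 and aged replicate 3 stood apart from the other libraries on the second axis (-34.8 and 21.8), which held 22.4% of the variance. On the first axis (45.6%) each was also the library of its group nearest the other age (-11.1 and 9.21). The other young libraries lay at -27.8 and -31.3 and the other aged ones at 29.3 and 31.7. Leaving both out thus sets the ages further apart on that axis. Epcam, the sorting marker and a binding partner of claudin-7, averaged 1656 ± 18.3 CPM over the young and 1510 ± 11.3 CPM over the aged group (SD, n = 3; log2 fold change -0.13, edgeR adjusted p = 0.653). For Epcam every aged library (at most 1523 CPM) lay below every young one (at least 1635 CPM), as in 7.49% of all tested genes. Ptprc, which encodes CD45, stayed below 0.3 CPM in all 6 libraries.

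Among the channel formers, Cldn2 makes a pore for sodium and water that is most abundant near the crypt in the adult mouse gut. It lies on chromosome X (139800828 to 139811386, plus strand, GRCm38). It stood at 364, 433 and 340.3 CPM among young mice and at 326, 347 and 312 CPM among aged mice. The groups overlapped, with young replicate 2 far above the other 5 libraries and aged replicate 2 above young replicate 3. The log2 fold change was -0.21 ± 0.098 (SE), with a 95% interval of -0.43 to 0.012 (edgeR adjusted p = 0.595). Without young replicate 2 it was -0.11, and without aged replicate 3 as well -0.072.

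Cldn15, the sodium channel on which luminal glucose uptake depends in mice, lies on chromosome 5 (136966616 to 136975858, plus strand). Its level was 593, 678 and 604 CPM among young mice and 534, 551 and 591 CPM among aged mice. No aged library reached the lowest young one, though young replicate 1 and aged replicate 3 nearly met. The log2 fold change was -0.16 ± 0.081, with an interval of -0.34 to 0.020 (edgeR adjusted p = 0.635), and it was -0.11 without young replicate 2. Of all tested genes, 13.8% had groups that did not overlap, 7.49% with the aged libraries below and 6.3% with them above. Among these 10 the counts were 2 below, Cldn15 and Cldn4, and 0 above. Both separations depended on the scaling. By counts over the library total alone, aged replicate 3 lay above young replicate 1 for Cldn15 (33153 of 55670388 against 26068 of 44511852). For Cldn4, aged replicate 1 was then level with young replicate 1 (8974 of 47841455 against 8348 of 44511852).

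Of the sealing claudins, Cldn7, a claudin of the basolateral membrane that EpCAM stabilises, stood at 835, 842 and 931 CPM among young and 892, 853 and 840.3 CPM among aged mice. Its 6 values interleaved, and the log2 fold change was -0.013 ± 0.075 (interval -0.18 to 0.16, edgeR adjusted p = 0.985). Cldn3, which makes the epithelium less permeable to ions and larger solutes, stood at 595, 561 and 709 CPM among young and 696, 589 and 599.9 CPM among aged mice. The highest and the lowest library were both young. Its log2 fold change was 0.016 ± 0.11 (interval -0.22 to 0.26, edgeR adjusted p = 0.986), a sign that turned with the scaling and with the libraries left out. Cldn3 shares 40 annotated exon bases with the antisense gene Wbscr25, which held at most 99 counts in any library.

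Cldn4, the receptor for Clostridium perfringens enterotoxin along with Cldn3, sits 39.3 kb from Cldn3 on chromosome 5 with no other annotated gene wholly between them. It stood at 189.9, 199.7 and 214 CPM among young mice and at 189.6, 145.9 and 133 CPM among aged mice. Aged replicate 1 thus held almost the level of the lowest young library, and the other aged libraries lay clearly lower. The log2 fold change was -0.37 ± 0.12, with an interval of -0.65 to -0.085 before any adjustment. The unadjusted p was 0.0163 and the adjusted p 0.311 (edgeR), with adjusted p-values from 0.0697 (without aged replicate 1) to 0.743 over the alternatives. Cldn23, the least abundant of the 6 claudins per length, varied most between mice of an age. It stood at 43.1, 35.6 and 45.6 CPM among young and 47.1, 34.96 and 49.0 CPM among aged mice, a log2 fold change of 0.079 ± 0.14 (interval -0.24 to 0.40, edgeR adjusted p = 0.936). The lowest library of each group was well below the other members of its group. In GRCm38, Cldn3 lies at 134986214 to 134987472 (plus strand) and Cldn4 at 134945119 to 134946934 (minus strand) on chromosome 5. Cldn7 lies on chromosome 11 (69964779 to 69967885, plus strand) and Cldn23 on chromosome 8 (35824712 to 35826559, minus strand).

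Ratios within a library do not depend on its scaling, and 0.5 was added to each count. The log2 ratio of Cldn4 to Cldn3 counts was -1.65, -1.49 and -1.73 among young and -1.88, -2.01 and -2.18 among aged mice. Every aged value was below every young value, and the means differed by -0.40. The exact two-sided permutation test gave p = 0.1, the smallest that 3 against 3 libraries allow, and p = 0.2 after adjustment over the 2 ratios compared. The log2 ratio of Cldn2 to Cldn15 was -0.70, -0.65 and -0.83 among young and -0.71, -0.67 and -0.92 among aged mice. These overlapped, with a mean difference of -0.041 (exact permutation p = 0.6, adjusted p = 0.6) that became 0.036 without aged replicate 3.

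**Figure D3:**
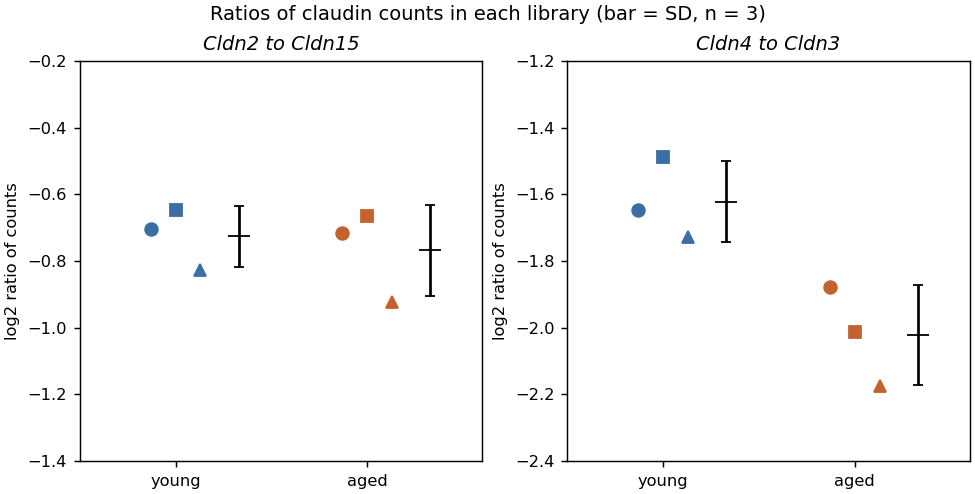
Log2 ratio of raw counts of Cldn2 to Cldn15 (left) and of Cldn4 to Cldn3 (right) in each library, with mean and SD (n = 3); the vertical axes do not start at 0, and the axis spans are equal. The Cldn4 to Cldn3 ratio separates the ages (-1.73 the lowest young, -1.88 the highest aged value), and the Cldn2 to Cldn15 ratio does not.

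The promoters of these 4 genes are shown because the ratios turn on them, and because Cldn3 and Cldn4 are neighbours on opposite strands. Each line gives the 250 bases before the RefSeq transcript start (GRCm38.p6), on the strand of the gene, 5′ to 3′. Capitals mark matches on either strand to 6 motifs: the TATA box TATAAA, the GC box GGGCGG, the AP-1 element TGANTCA, the HNF1 half-site GTTAAT, the CDX motif TTTATG and the E-box CACCTG.
Cldn2 (chrX:139800558-139800807, plus strand): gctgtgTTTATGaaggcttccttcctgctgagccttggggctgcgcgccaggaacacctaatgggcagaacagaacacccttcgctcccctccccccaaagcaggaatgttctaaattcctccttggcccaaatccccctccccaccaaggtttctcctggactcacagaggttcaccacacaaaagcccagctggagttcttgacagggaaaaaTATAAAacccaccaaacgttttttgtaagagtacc
Cldn15 (chr5:136967619-136967868, plus strand): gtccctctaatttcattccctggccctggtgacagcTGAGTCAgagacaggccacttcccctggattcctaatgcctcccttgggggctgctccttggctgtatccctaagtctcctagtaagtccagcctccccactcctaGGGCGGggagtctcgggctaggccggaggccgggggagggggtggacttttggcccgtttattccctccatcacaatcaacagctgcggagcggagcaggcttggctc
Cldn3 (chr5:134985964-134986213, plus strand): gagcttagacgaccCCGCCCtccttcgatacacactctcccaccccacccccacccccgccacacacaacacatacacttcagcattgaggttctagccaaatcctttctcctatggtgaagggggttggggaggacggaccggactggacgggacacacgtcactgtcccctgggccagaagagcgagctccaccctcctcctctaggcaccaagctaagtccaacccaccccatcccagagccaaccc
Cldn4 (chr5:134946935-134947184, minus strand): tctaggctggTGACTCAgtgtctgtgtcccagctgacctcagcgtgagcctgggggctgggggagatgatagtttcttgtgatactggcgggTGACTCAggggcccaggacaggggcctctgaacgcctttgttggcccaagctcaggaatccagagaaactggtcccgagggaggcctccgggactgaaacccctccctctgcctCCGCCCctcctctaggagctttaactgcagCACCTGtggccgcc
Cldn2 held a TATA box that begins 35 bases before the start and a CDX motif 244 bases before it. TATA boxes of these letters were found in 12.4% and CDX motifs in 10.8% of the 32851 promoter windows of the same length. Cldn4 held 2 AP-1 elements, at 240 and 158 bases before the start, and Cldn15 held 1, while 6.75% of all windows held any. GC boxes stood in the Cldn3, Cldn4 and Cldn15 windows and in 32.7% of all windows. Cldn4 also held an E-box, found in 17.2% of windows, and the HNF1 half-site, found in 6.43%, was not among these letters. Distances are from the RefSeq starts, which differ from the GENCODE gene starts given above for 2 of the genes. The window of Cldn15 lies inside its GENCODE gene span, and that of Cldn2 ends short of its GENCODE start. These matches describe the sequence and are not evidence of binding. The RefSeq table held windows for 9 of the 10 genes.

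Among the other membrane proteins, Ocln, which encodes occludin, a MARVEL-domain protein of the junction strands, stood at 182, 159 and 188 CPM among young and 167, 156.9 and 176 CPM among aged mice. The groups overlapped, and the log2 fold change was -0.082 ± 0.084 (interval -0.27 to 0.11, edgeR adjusted p = 0.871). It was -0.16 without young replicate 2 and -0.033 without young replicate 3. Marveld2 encodes tricellulin, which seals the points where cells meet at corners, and lies at 100595957 to 100616971 on chromosome 13, 43.2 kb from Ocln (100496507 to 100552718), both on the minus strand. Its levels of 55.1, 61.0 and 55.3 CPM among young and 57.6, 56.4 and 59.7 CPM among aged mice gave the narrowest spread within groups, a coefficient of variation of 4.63%. Its log2 fold change was 0.019 ± 0.074 (interval -0.15 to 0.19, edgeR adjusted p = 0.974).

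F11r encodes JAM-A, an immunoglobulin-like adhesion molecule of the junction, and lies on chromosome 1 (171437535 to 171464603, plus strand). It stood at 227, 238 and 226 CPM among young and 245, 216 and 225 CPM among aged mice, so the aged values lay on both sides of the young ones. The log2 fold change was -0.012 ± 0.072 (interval -0.17 to 0.15, edgeR adjusted p = 0.985). Tjp1, the scaffold gene, spans 65296165 to 65527781 on chromosome 7 (minus strand). It stood at 151, 145.0 and 135 CPM among young and 135, 139 and 165 CPM among aged mice, with aged replicate 3 the highest of the 6. Its log2 fold change was 0.024 ± 0.092 (interval -0.18 to 0.23, edgeR adjusted p = 0.974).

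The 95% intervals give the range of differences that these libraries leave possible for a gene taken alone, without adjustment for the number of genes tested. For Tjp1 the interval of the aged level lay between 0.880 and 1.17 times the young one, for F11r between 0.886 and 1.11, for Cldn7 between 0.881 and 1.12 and for Marveld2 between 0.903 and 1.14. For Cldn4 the interval ran from 0.638 to 0.942 times, although the gene did not pass after adjustment (edgeR adjusted p = 0.311). For Cldn23 it ran from 0.847 to 1.32. The spread between mice of an age was 4.63 to 15.3% of the mean over the 10 genes, beside a median of 7.10% over the 6692 tested genes that averaged 30 CPM or more.

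Levels of different genes were compared per kilobase of annotated exon. Cldn3 led with 494 CPM per kilobase among young and 499 among aged mice, followed by Cldn7 (446 and 442) and Cldn15 (294 and 263). Cldn2 (114 and 98.7), Cldn4 (111 and 85.9) and F11r (86.6 and 85.9) formed the next step, and their order was not the same in all 6 libraries. Ocln (41.7 and 39.4), Cldn23 (22.4 and 23.7), Tjp1 (18.4 and 18.7) and Marveld2 (16.9 and 17.1) were lower. Cldn3 exceeded Cldn7 in all 6 libraries, but only by 1.12-fold, about the spread of Cldn3 itself, and with the longest transcript as length the order turned (497 and 648). Tjp1 exceeded Marveld2 by 1.09-fold, also about its own spread.

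Summed over the family, claudin messenger RNA stood at 1498 ± 79.6 CPM per kilobase among young and 1428 ± 66.8 among aged mice (SD, n = 3). Cldn3 made up 32.9 ± 2.63% of it among young and 34.9 ± 1.61% among aged mice, Cldn7 29.8 ± 0.377 and 31.0 ± 0.604%, and Cldn15 19.7 ± 1.90 and 18.5 ± 1.63%. The channel former Cldn2 contributed 7.64 ± 1.20 and 6.92 ± 0.550%, Cldn4 7.40 ± 0.0940 and 5.99 ± 0.866%, and Cldn23 1.496 ± 0.165 and 1.65 ± 0.269%. Together these 6 made up 98.8 to 99.1% of the total in every library. The shares are tied to one another, so a lower share of Cldn4 goes with higher shares elsewhere.

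**Figure D4:**
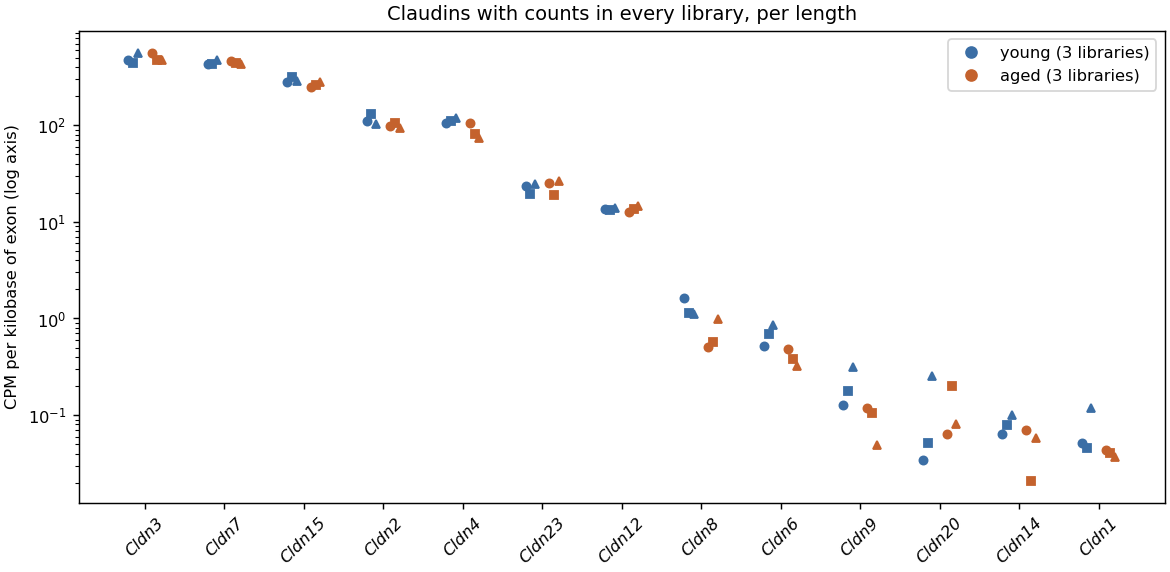
CPM per kilobase of exon on a log axis for the 13 claudins with counts in every library, ordered by mean, with young libraries in blue and aged ones in orange. The 6 claudins described here lie at 18.9 CPM per kilobase or more, Cldn12 averages 13.6, and the rest under 2.

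Of 35 claudin symbols in the table, 15 had no count in any library. A library with 0 counts allows up to 3, which is 0.0509 to 0.0723 CPM here. Beyond the 6, Cldn12, a broadly expressed claudin, was the only other one above 5 CPM, with 57.5 ± 0.889 CPM among young and 57.5 ± 4.10 CPM among aged mice (log2 fold change -0.00095, edgeR adjusted p = 0.999). Cldn5, the claudin of endothelium, had 0 or 1 count per library. A list of other claudins and claudin-like genes had 5 tested members of 25, of which the edgeR test called 0 and 2 had an unadjusted p below 0.05. Its median log2 fold change of -0.80 was that of Cldn1, named after its values were seen. Cldn1 held 9 to 24 counts per library (edgeR adjusted p = 0.709). All 5 had log2 fold changes below 0, but that of Cldn12 was near 0 and turned sign over the alternatives. The most abundant of them were Cldn12 and Cldnd1, a claudin domain gene, which stood at 63.2 ± 3.57 and 60.4 ± 4.04 CPM (log2 fold change -0.064 ± 0.080, edgeR adjusted p = 0.895). The 2 with a low unadjusted p, named after their values were seen, were Cldn8, a barrier claudin of the distal gut and kidney, and Cldn6, an embryonic claudin. Cldn8 stood at 3.84, 2.65 and 2.64 CPM among young and 1.18, 1.34 and 2.32 CPM among aged mice, without overlap. Its log2 fold change was -0.91 ± 0.29 (edgeR adjusted p = 0.271), and with young replicate 2 and aged replicate 3 both left out it was -1.37 (adjusted p = 0.0150), the only call over alternatives that ranged up to an adjusted p of 0.764. Cldn6 stood at 0.887, 1.20 and 1.49 CPM among young and 0.824, 0.658 and 0.553 CPM among aged mice (log2 fold change -0.81 ± 0.29, edgeR adjusted p = 0.349). Its range was also free of overlap, at 71 counts per library or fewer, but young replicate 1 and aged replicate 1 held 39 counts each. On this list 3 of the 5 tested genes, Cldn1, Cldn6 and Cldn8, had every aged library below every young one, beside 7.49% of all tested genes. Cldn1 held 11, 13 and 24 counts among young and 10, 9 and 10 among aged mice. It passed the filter on low counts only through its young libraries. Its separation and its place on the list thus follow from the filter, and the count of 3 is not read as a result.

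Other junction genes were counted on lists that do not include the 10. Of 35 tested scaffold, polarity and regulator genes 1 fell and 0 rose, with a median log2 fold change of 0.00094; 0.784% of all tested genes fell. The gene that fell was Amotl1, an angiomotin family member that binds the Patj and YAP proteins at junctions (chromosome 9, 14541966 to 14645056). It stood at 3.66, 3.804 and 4.47 CPM among young and 0.232, 0.592 and 0.766 CPM among aged mice (161, 225 and 186 counts against 11, 27 and 43). Every aged library was far below every young one, and the log2 fold change was -2.89 ± 0.35 (edgeR adjusted p = 0.00656). It was called in all 15 alternative fits, with adjusted p-values up to 0.0400 (without aged replicate 2). The most abundant genes of the list did not pass. Tjp3, which encodes the scaffold ZO-3, stood at 568 ± 20.9 and 603 ± 48.6 CPM (adjusted p = 0.846). Ybx3, a transcription factor that ZO-1 holds at the junction, stood at 305 ± 18.2 and 327 ± 29.95 CPM (adjusted p = 0.832).

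Of 8 other tight junction membrane genes tested, edgeR called 0 and 0 had an unadjusted p below 0.05, with a median log2 fold change of 0.034. DESeq2 and limma-voom also called 0 of these membrane genes. Over all tested genes edgeR called 1.41%, and 9.23% had an unadjusted p below 0.05. On lists this short, 0 calls is thus near the share over all genes. Their most abundant members were Lsr, which recruits tricellulin to cell corners (397 ± 21.1 and 402 ± 12.6 CPM, adjusted p = 0.973), and Cxadr, the coxsackievirus and adenovirus receptor (112 ± 9.28 and 113 ± 7.501 CPM, adjusted p = 0.981). Of 19 adherens junction genes tested, edgeR called 0 and limma-voom 0, and 1 had an unadjusted p below 0.05. That gene, Ablim1, an actin-binding protein named after its values were seen, stood at 23.9 ± 4.65 and 36.2 ± 6.07 CPM (edgeR adjusted p = 0.167), and DESeq2 called it higher in aged mice (adjusted p = 0.0150; up to 0.534 over the alternatives). The cadherin gene Cdh1 stood at 1461 ± 29.6 and 1361 ± 87.6 CPM (adjusted p = 0.818) and its relative Cdh17 at 956 ± 32.2 and 955 ± 80.4 CPM (adjusted p = 0.999).

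Of 13 desmosome and keratin genes 0 were called and 0 had an unadjusted p below 0.05, with the same count of 0 calls by DESeq2 and limma-voom. Their median log2 fold change was 0.0091, and the leading keratins Krt19 (2731 ± 230.0 and 2677 ± 101 CPM, edgeR adjusted p = 0.970) and Krt8 (1877 ± 163 and 1894 ± 139 CPM, adjusted p = 0.988) had overlapping groups. Among 13 tested claudin partners and surface proteases 0 were called by any of these tools, 0 had an unadjusted p below 0.05, and 9 had log2 fold changes below 0 (median -0.097). Their leading members were Epcam, given above, and Spint2, an inhibitor of the proteases that cleave EpCAM (950 ± 77.5 and 863 ± 31.2 CPM, adjusted p = 0.724). The transcription factors often named with claudin genes gave 0 calls of 21 by any of these tools and 0 unadjusted p-values below 0.05. Hnf4a (1598 ± 112 and 1679 ± 98.8 CPM, adjusted p = 0.891) and Elf3 (978 ± 35.2 and 1028 ± 46.3 CPM, adjusted p = 0.869) were the most abundant of them.

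**Figure D5:**
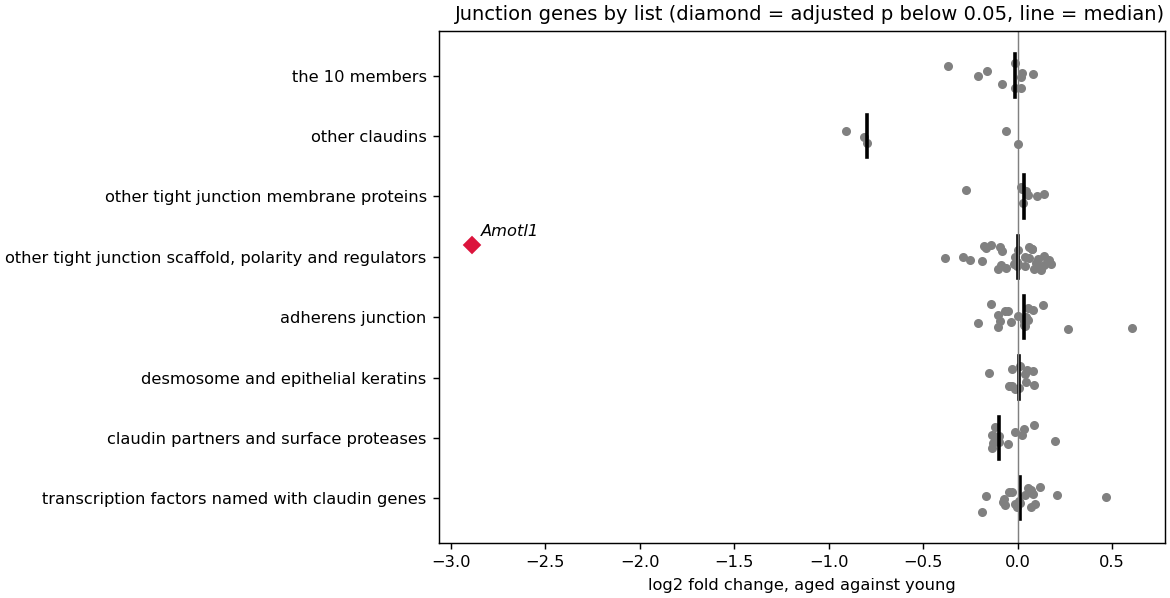
Log2 fold change of aged against young mice (horizontal axis) for every tested gene of each list; grey points are genes that did not pass, the red diamond is the gene with an adjusted p below 0.05, and black lines are medians. Amotl1 at -2.89 is the single called gene, and the medians lie between -0.097 and 0.034 except that of the 5 other claudins at -0.80. That median is the value of Cldn1, which held 24 counts per library or fewer and passed the filter on low counts only through its young libraries.

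Markers of some epithelial cell types differed between the groups. Summed over 8 Paneth genes, the level was 8490 to 15692 CPM among young and 6409 to 6876 CPM among aged mice, and 2 of the 8, Defa17 and Defa26, fell. For 8 goblet genes it was 17763 to 27023 and 15019 to 16665 CPM, and Tff3 fell. The highest goblet sum was that of young replicate 2, which also held the highest Cldn2 and Cldn15. The same library held the lowest crypt base sum of all libraries (6001 CPM) and the lowest Paneth sum of the young ones (8490 CPM). Of 8 duodenal genes, 7 of them tested, Trpv6 and Gip fell, with sums of 768 to 809 and 679 to 751 CPM. Of 8 enteroendocrine genes Sst and Gip, the latter also on the duodenal list, fell, with overlapping sums of 2154 to 2859 and 2440 to 2737 CPM. Over all tested genes edgeR called 0.784% lower in aged mice. The 12 crypt base genes (6001 to 7367 and 6015 to 6815 CPM), the 16 enterocyte genes (6467 to 8255 and 5011 to 7093 CPM), the 8 tuft cell genes (65.6 to 68.1 and 44.97 to 71.0 CPM) and the 8 ileal genes (51.1 to 58.1 and 47.5 to 51.4 CPM) had 0 edgeR calls. All crypt base and enterocyte genes were tested, but 7 of the tuft cell and 6 of the ileal genes, and an unadjusted p below 0.05 was seen for 0, 4, 2 and 1 of them in that order. For the Paneth, goblet, duodenal and enteroendocrine genes the counts were 5, 6, 4 and 5. Over all tested genes 9.23% passed that mark in the edgeR test. Log2 fold changes were below 0 for all tested Paneth, goblet and tuft cell genes (8, 8 and 7) and of mixed sign on the other epithelial lists. The part of these shifts in the levels of Cldn2, Cldn4, Cldn15 and Amotl1 was not tested.

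Cells that the sort should remove left little RNA. The 14 leukocyte genes summed to 13.9 to 21.4 CPM among young and 14.3 to 21.2 CPM among aged mice, most of it from Cd68 and Lyz2, with S100a8 at 0. The endothelial list (10.1 to 11.8 and 12.2 to 12.99 CPM) was mostly Esam, with Cdh5 and Kdr at 0 in all libraries. The fibroblast and smooth muscle list (28.1 to 49.1 and 32.6 to 39.3 CPM) was mostly Vim, with Lum at 0. The neuron and glia list (13.2 to 14.2 and 10.3 to 11.9 CPM) was mostly Ret, with Sox10 at 0, and the acinar list (5.38 to 7.78 and 10.1 to 11.9 CPM) mostly Cela1, with Cpa1 and Prss1 at 0. Few of these genes had counts enough to be tested: 6 of 14 leukocyte, 3 of 10 endothelial, 1 of 10 fibroblast and smooth muscle, 4 of 10 neuron and glia, and 2 of 8 acinar genes. Among those tested edgeR called 0, and 1 neuron and glia gene and 1 acinar gene had an unadjusted p below 0.05. The endothelial and acinar sums were higher, and the neuron and glia sum lower, in every aged library than in any young one. Of single tested genes, 6.3% lay higher and 7.49% lower without overlap. No such share was computed for sums, and these rest on few genes at low levels, so no shift in these cells is read from them.

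The genes closest in pattern to the claudins that differed most were taken from 9960 named genes with a mean of 5 CPM or more, by Pearson correlation of log2 CPM (0.5 CPM added) over the 6 libraries. For Cldn2 they were Cbx2 (r = 0.99), Muc2 (0.99) and Zfp664 (0.98), which share with it the high value of young replicate 2; with the 2 libraries farthest from the Cldn2 median left out, r was 0.96, 0.95 and 0.95. For Cldn4 they were Zfp263 (0.99), Mxd4 (0.99) and Zfp870 (0.98), with 0.93, 0.83 and 0.50 by the same step. For Cldn15 they were Ppme1 (0.99), Kif21a (0.98) and Fastkd1 (0.97), and 0.95, 0.87 and 0.83. With so many genes and so few libraries, correlations of this size describe the ranking only, and libraries share depth and cell composition.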

How the data were processed

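Poly(A) RNA of sorted epithelial cells had been made into stranded libraries, per the labels' protocols. The deposited values are raw read counts per gene, not normalised by the authors, since they are whole numbers with unequal totals. GRCm38 and, without roles, STAR, HISAT2 2.1.0 and featureCounts 1.6.4 are named among others in the submitters' processing notes. No source used here gives the annotation release or the strand setting, so counts of overlapping or antisense genes are uncertain. Positions and exon lengths are from GENCODE M21 (GRCm38), which held 45143 of the 46078 gene IDs; promoters are from RefSeq.

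Genes were kept by filterByExpr of edgeR 4.0.16 (minimum count 10), which left 14923, and scaled with TMM factors. Aged and young libraries were compared by the edgeR quasi-likelihood test with robust estimation and age as the term (R 4.3.3), with Benjamini-Hochberg adjustment over all tested genes and a threshold of 0.05. The SE is the log2 fold change over the square root of F, and intervals are 95%. DESeq2 1.42.0, limma-voom (limma 3.58.1), other scalings, filters and libraries left out were alternatives. No replicate pair agreed within sampling noise (chi-square per gene at least 25.0). Limits for 0 counts cover counting error only. Named were the 10 genes, on each junction list every called gene and the 2 most abundant tested ones, Epcam, Ptprc, markers of other cell types, and 3 genes closest in pattern to Cldn2, Cldn4 and Cldn15; genes outside this rule, such as Cldn6, Cldn8 and Ablim1, were chosen after their values were seen. The genes and lists were chosen with earlier results of these data known.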

Additional observations from a re-analysis of the deposited data

How the results depend on the processing

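The 10 tight junction genes gave 0 calls in the main test and in all 15 alternative fits, with a lowest adjusted p of 0.0697 (Cldn4 without aged replicate 1). Cldn2, Cldn4, Cldn15 and Ocln kept a negative sign in all of them. Without single libraries Cldn2 ranged from -0.28 to -0.11, Cldn4 from -0.53 to -0.27, Cldn15 from -0.21 to -0.11 and Ocln from -0.16 to -0.033. Genes near 0 turned sign: over these fits Cldn3 ranged from -0.064 to 0.12, Cldn7 from -0.042 to 0.039, Cldn23 from -0.026 to 0.21, Tjp1 from -0.077 to 0.080, Marveld2 from -0.0075 to 0.063 and F11r from -0.062 to 0.022, as did Cldn12 (-0.061 to 0.047), Lsr (-0.0085 to 0.064), Cxadr (-0.038 to 0.081), Cdh17 (-0.077 to 0.039), Krt19 (-0.089 to 0.038) and Krt8 (-0.049 to 0.081). With upper-quartile factors Cldn3 was -0.0011 and Krt8 -0.0034. Scaling by total count gave 0.0039 for Cldn12 and 0.0043 for Cdh17, and no filter 0.0023 and 0.0025. A fit without young replicate 2 and aged replicate 3, chosen after seeing the data, gave Cldn3 -0.027, Cldn23 -0.12, Tjp1 -0.072, F11r 0.017 and Krt8 -0.037. In it 594 genes were called higher and 587 lower, among them 1 of the other claudins lower (Cldn8), 2 scaffold genes higher (Cgn and Scrib) and 2 lower (Amotl1 and Cgnl1), 1 adherens gene higher (Shroom3) and 1 claudin partner lower (Tspan15). DESeq2 called 1 adherens gene higher (Ablim1). Over all genes 93 were called higher and 117 lower, against 168 and 245 without a filter, 205 and 286 by DESeq2, and 67 lower with the filter of 1 CPM in 3 libraries; without single libraries the counts ran from 35 to 135 and from 30 to 135. The Cldn2 to Cldn15 ratio ranged from -0.093 to 0.036 without single libraries, and that of Cldn4 to Cldn3 from -0.47 to -0.32. With the longest transcript as length the level of Cldn7 was 648, of Cldn15 311, of Tjp1 20.6, of Marveld2 18.5 and of F11r 91.2 CPM per kilobase, and the shares of Cldn3, Cldn4, Cldn7 and Cldn23 were 29.0, 5.73, 37.9 and 1.35%. The cause of these differences was not tested. No paired analysis was possible because the labels give no pairing of young with aged mice. Depth did not limit the 10 genes; it limits the claudins under 1 CPM.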
